A study of Rattus norvegicus with 24 samples.

Results

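The first-hour response in rat hippocampus was examined by setting the 4 arrays labelled 1 h (2 TOL, 2 SHAM) against the 4 labelled 0 h (2 TOL, 2 SHAM), with each arm compared within itself and the differences of both arms averaged. These are 8 of the 24 arrays of a time course of ischemic tolerance, chosen by the arm and hour in their sample titles. Total RNA of hippocampus was hybridised to Affymetrix rat expression arrays. Tissue was taken 0, 1, 3, 12, 24 and 48 h following an ischemia operation, with a first and a second experiment for each arm and time. The TOL arm at 1 h and at 0 h is labelled as hypoxia tolerant, and the SHAM arm at 1 h and at 0 h as hypoxia sensitive. All 4 groups carry the operation in their labels, so the 0 h arrays are the start of each arm's own course and not unoperated tissue. The sources used here do not give strain, age, the kind of operation or what the hypoxia terms mean. The labels do not state whether a first and a second experiment used different animals. All p-values below therefore measure the spread between arrays of the same group, estimated over all 24 arrays, and that spread may be technical.

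Within minutes of strong synaptic activity, injury or ischemia, neurons switch on immediate early genes, whose transcription needs no new protein synthesis. Many encode transcription factors of the Fos, Jun, Egr and Nr4a families, and others encode phosphatases and inhibitors that damp the signalling that induced them. In parallel, unfolded protein releases heat shock factor 1, which drives the genes of inducible chaperones such as Hsp70. Short promoter elements serve as textbook sites for the factors behind both programmes: the cyclic AMP response element for CREB, the CArG box for serum response factor and the heat shock element for heat shock factor 1.

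The promoters of 6 genes that rose at 1 h are shown because each holds at least 1 of these elements. They were chosen after their values were seen. They come from RefSeq (build GRCr8) and run from 250 bases before to 50 bases after the gene's start. Each line is the gene's own strand, 5′ to 3′, with the matched letters in capitals and position 0 at the start site.

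The first pair, Dusp1 (chr10:17184603-17184902, plus strand) and Ppp1r15a (chr1:105139547-105139846, minus strand), shows the cyclic AMP response element TGACGTCA and its core TGACG in capitals, on either strand.
Dusp1: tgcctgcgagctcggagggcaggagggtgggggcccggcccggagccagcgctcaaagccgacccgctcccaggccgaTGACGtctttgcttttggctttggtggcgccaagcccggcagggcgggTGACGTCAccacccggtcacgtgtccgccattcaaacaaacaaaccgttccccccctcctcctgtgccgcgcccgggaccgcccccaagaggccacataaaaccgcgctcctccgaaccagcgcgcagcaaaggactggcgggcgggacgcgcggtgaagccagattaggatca
Ppp1r15a: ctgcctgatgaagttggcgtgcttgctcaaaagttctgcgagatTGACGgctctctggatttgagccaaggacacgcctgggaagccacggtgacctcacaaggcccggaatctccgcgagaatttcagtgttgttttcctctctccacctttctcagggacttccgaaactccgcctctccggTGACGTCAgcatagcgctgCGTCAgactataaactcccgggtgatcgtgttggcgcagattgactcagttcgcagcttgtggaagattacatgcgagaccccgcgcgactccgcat
The full element stood at positions -124 to -117 in Dusp1 and at -66 to -59 in Ppp1r15a. A separate core stood at -172 to -168 in Dusp1, and separate cores at -206 to -202 and -47 to -43 in Ppp1r15a.

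The second pair, Egr2 (chr20:21054392-21054691, minus strand) and Dusp5 (chr1:262543524-262543823, plus strand), shows the CArG box in capitals.
Egr2: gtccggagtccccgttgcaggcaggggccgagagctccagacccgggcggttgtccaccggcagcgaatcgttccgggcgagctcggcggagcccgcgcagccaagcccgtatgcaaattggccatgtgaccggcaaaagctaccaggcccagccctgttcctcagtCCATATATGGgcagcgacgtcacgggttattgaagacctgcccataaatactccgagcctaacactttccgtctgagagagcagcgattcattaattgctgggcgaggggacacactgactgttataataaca
Dusp5: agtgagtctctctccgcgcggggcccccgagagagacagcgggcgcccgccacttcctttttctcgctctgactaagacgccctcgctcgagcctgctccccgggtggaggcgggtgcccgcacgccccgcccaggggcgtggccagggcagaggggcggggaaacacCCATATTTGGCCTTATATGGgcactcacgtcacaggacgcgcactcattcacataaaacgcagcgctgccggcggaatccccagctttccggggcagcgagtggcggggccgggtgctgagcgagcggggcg
Egr2 held 1 box, at -83 to -74, and Dusp5 held 2 boxes that abut each other, at -82 to -73 and -72 to -63.

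The last pair, Hsph1 (chr12:10427118-10427417, plus strand) and Dnaja1 (chr5:60638154-60638453, plus strand), shows the heat shock element, searched on either strand as the bases GAA, TTC and GAA with 2 free bases between neighbours, in capitals.
Hsph1: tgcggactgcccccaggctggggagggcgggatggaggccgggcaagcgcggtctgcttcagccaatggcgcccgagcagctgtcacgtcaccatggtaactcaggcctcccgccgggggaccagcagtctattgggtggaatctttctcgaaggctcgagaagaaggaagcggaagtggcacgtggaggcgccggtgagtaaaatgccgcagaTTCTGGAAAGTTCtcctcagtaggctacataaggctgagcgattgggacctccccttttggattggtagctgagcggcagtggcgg
Dnaja1: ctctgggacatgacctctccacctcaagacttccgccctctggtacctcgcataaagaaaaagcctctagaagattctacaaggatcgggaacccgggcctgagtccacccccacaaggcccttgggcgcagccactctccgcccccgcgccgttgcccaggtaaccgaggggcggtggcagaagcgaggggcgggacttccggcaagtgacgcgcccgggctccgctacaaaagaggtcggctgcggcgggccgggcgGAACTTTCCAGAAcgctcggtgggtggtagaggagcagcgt
The element lay at -36 to -24 in Hsph1 and at 9 to 21, past the start site, in Dnaja1.

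Of the 52 genes called higher below, 40 had a promoter in the tables used, and 31 of the 37 called lower. The core TGACG was in 55.0% of the promoters of genes called higher, 22.6% of those called lower, 31.3% of the 2648 promoters of tested genes and 22.0% of all 27457 promoters of the same length. The full element TGACGTCA was in 5.0% of the promoters of genes called higher (2 of 40) and 2.64% of those of tested genes, and every full element also holds the core. The CArG box was in 7.5% of the promoters of genes called higher (3 of 40), 3.23% of those called lower and 1.7% of those of tested genes. The heat shock element was in 5.0% of those called higher (2 of 40), 3.23% of those called lower and 0.604% of tested genes. For the AP-1 site TGANTCA these shares were 2.5%, 6.45% and 5.36%. These shares describe letters in a 300-base window, and no binding was measured. The window of Hspa1a, the largest rise, held none of the motifs searched, and that of Dnajb1 held no heat shock element. No promoter was available for Fos, Jun or Arc.

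Across probe sets, the 2 arrays of a group correlated at r = 0.958 to 0.975, and their median SD was 0.111 to 0.158 on the log2 scale. Each array gave 1 deposited intensity for 8799 probe sets, and the number of arrays limits the precision. Values are normalised intensities in arbitrary units, comparable between arrays for 1 probe set but not between probe sets. Summed levels of marker lists therefore weigh the brightest members most. The noise level was 41.2 units, and a probe set was tested if both arrays of at least 1 of the 4 groups lay above it, which left 5326 probe sets and 3227 genes. The record of hybridisation times put 3 fluidics runs under the 8 arrays. Both SHAM 0 h arrays, SHAM 1 h replicate 1 and TOL 0 h replicate 1 shared the first run, both TOL 1 h arrays and TOL 0 h replicate 2 shared another on a second day, and SHAM 1 h replicate 2 stood in a run of its own among the 8. All 30 neuronal marker genes on the array were tested, with a summed level of 44200 and 47490 units in TOL at 1 h, 38730 and 42280 in TOL at 0 h, 41240 and 40310 in SHAM at 1 h, and 40940 and 39460 in SHAM at 0 h.

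One hour after the operation 111 probe sets were higher than at 0 h (2.08% of those tested) and 62 were lower (1.16%), at an adjusted p under 0.05 in limma's moderated test, 173 in all (3.25%). By gene, each taken by its brightest tested probe set, 52 rose (1.61%) and 37 fell (1.15%), 89 in all (2.76%). These percentages of genes are the background for every count of calls in a gene list below. A single call in a list cannot be read as a response of that list. Rises were the larger: the median log2 difference of the probe sets called higher was 0.91, against -0.52 for those called lower, and 50 rises but 9 falls passed 1 on the log2 scale. The median difference over all genes tested was -0.02. In 103 of the 111 probe sets called higher, both 1 h arrays lay above both 0 h arrays in each arm, which 6.05% of all tested probe sets did. In 53 of the 62 called lower, both lay below in each arm, which 7.55% of all tested did. By gene these shares were 5.21% and 8.12%. The number of falls was the less stable count. It was 29 when TOL 0 h replicate 1 was left out, and 23 when TOL 1 h replicate 2 was. Leaving out replicate 1 or replicate 2 of SHAM at 1 h gave 41 or 26 falls, and leaving out replicate 1 or replicate 2 of SHAM at 0 h gave 30 or 36. The number of rises was 70 without TOL 1 h replicate 2. Comparing only arrays of the same fluidics run, by leaving out SHAM 1 h replicate 2 and TOL 0 h replicate 1, gave 68 rises and 16 falls. Of the 173 calls, 75 held there (65 higher, 10 lower), and all 173 kept their direction. That comparison reuses arrays that made the calls, so the kept direction is not independent of them. The fit of the 8 arrays alone kept 79 of the 173 calls. The share of calls that were rises was 64.2%, but 51.3% with arrays scaled by their medians (99 higher, 94 lower) and 80.5% without normalisation (62 higher, 15 lower).

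Hspa1a, the stress-inducible cytosolic Hsp70 chaperone, showed the largest rise. It read 2943 and 2239 units in TOL at 1 h, with both TOL arrays at 0 h below the noise level. The SHAM arrays read 2664 and 2183 units at 1 h, again with both 0 h arrays below the noise level. The groups did not overlap, which was a condition for choosing the 15 largest rises and 12 largest falls. All 4 arrays at 1 h were bright. The rise was at least 60.4-fold in the mean of both arms (adjusted p = 1.4e-14), at least 62.3-fold in TOL and at least 58.5-fold in SHAM. Rat carries near-identical copies of the inducible Hsp70 gene, and their transcripts may hybridise to 1 probe set, so the signal cannot be given to Hspa1a alone.

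Among the immediate early transcription factors, 13 of the 24 genes tested rose and 1 fell, against 1.61% and 1.15% of all genes, and the median of the list was 0.71 on the log2 scale. Fos, the partner of Jun proteins in the AP-1 complex, read 1708 and 1276 units in TOL at 1 h, against 224 and 170 at 0 h. In the SHAM arm it read 1738 and 1816 units at 1 h, against 187 and 136 at 0 h. All 1 h arrays lay far above all 0 h arrays, and the rise was 9.18-fold (log2 difference 3.20, SE 0.23, adjusted p = 2.4e-07). Jun read 1220 and 1234 units in TOL at 1 h, against 142 and 207 at 0 h. In SHAM Jun read 932 and 883 units at 1 h, against 152 and 166 at 0 h, again without overlap, and it rose by 2.67 (SE 0.14, adjusted p = 9.6e-09). Junb, another AP-1 subunit, read 418 and 336 units in TOL at 1 h, with both 0 h arrays below the noise level. In SHAM Junb read 370 and 285 units at 1 h, against 93.8 and 46.6 at 0 h. Its rise was at least 6.68-fold (adjusted p = 2.2e-06).

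Egr2, a zinc finger factor of the Egr family, whose promoter with its CArG box is printed above, read 297 and 287 units in TOL at 1 h and 326 and 319 in SHAM at 1 h. All 4 of its 0 h arrays lay below the noise level. It was therefore at least 7.44-fold higher at 1 h (adjusted p = 8.2e-11) and its 1 h arrays lay close together in both arms. Egr1, of the same family, read 5651 and 5224 units in TOL at 1 h, against 2341 and 2005 at 0 h. In SHAM Egr1 read 6812 and 6258 units at 1 h, against 3356 and 3060 at 0 h (log2 difference 1.18, SE 0.26, adjusted p = 0.022). The 0 h values of Egr1 were already far above the noise level in both arms. Its call was lost without any 1 of the 8 arrays, without normalisation and within fluidics runs.

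The orphan nuclear receptors of the Nr4a family, which bind DNA without a classical ligand, rose in all 3 members measured. Nr4a1 read 2201 and 1629 units in TOL at 1 h, against 406 and 664 at 0 h. In SHAM it read 2071 and 1813 units at 1 h, against 597 and 575 at 0 h. It rose 3.47-fold (log2 difference 1.80, SE 0.19, adjusted p = 2.8e-05), with no overlap. Nr4a3 rose by 0.90 (SE 0.13, adjusted p = 0.0007) and Nr4a2 by 0.58 (SE 0.13, adjusted p = 0.022). Nr4a3 read 667 and 701 units in TOL at 1 h and 472 and 314 at 0 h, and in SHAM 958 and 919 at 1 h and 476 and 481 at 0 h. Nr4a2 lost its call without either SHAM 0 h array, replicate 2 of SHAM or of TOL at 1 h, or TOL 0 h replicate 1, and when arrays were not normalised, with hybridisation day as a block and within fluidics runs. Neither overlapped between the times.

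Of the other transcription factors, Klf4, a zinc finger factor that restrains proliferation, read 402 and 362 units in TOL at 1 h, against 102 and 127 at 0 h. In SHAM Klf4 read 295 and 255 units at 1 h, against 86.7 and 85.6 at 0 h, a rise of 3.26-fold over both arms (adjusted p = 3e-06). Cebpb, a leucine zipper factor of the inflammatory response, read 442 and 520 units in TOL at 1 h, against 84.2 and 234 at 0 h. In SHAM Cebpb read 267 and 301 units at 1 h, against 143 and 209 at 0 h. The mean of both arms passed the test (log2 difference 1.24, SE 0.25, adjusted p = 0.0098), but SHAM alone did not (0.71, adjusted p = 0.56). The call of Cebpb was lost without SHAM 0 h replicate 1 or TOL 1 h replicate 2, in the fit of the 8 arrays alone and within fluidics runs. A dimmer probe set of Cebpb did not pass (0.62, adjusted p = 0.20). Crem, which encodes repressors that bind the cyclic AMP response element, rose by 0.88 (SE 0.17, adjusted p = 0.0066), Atf3, a stress-induced factor of the ATF family, by 0.75 (SE 0.13, adjusted p = 0.0033) and Id1, an inhibitor of basic helix-loop-helix factors, by 0.66 (SE 0.16, adjusted p = 0.039). Egr1, Nr4a2, Nr4a3, Crem, Atf3 and Id1 are named here as the remaining members of the list that rose, chosen after their values were seen. The call of Crem was lost within fluidics runs, and that of Atf3 without normalisation and in the fit of the 8 arrays alone. Id1 lost its call without any 1 of 6 arrays, holding it only without SHAM 0 h replicate 2 or TOL 0 h replicate 2. Its call was also lost with the floor at the 25th percentile, without normalisation, in the fit of the 8 arrays alone, with experiment number or hybridisation day as a block and within fluidics runs. Members that did not pass included Klf10 (0.83, adjusted p = 0.085), Egr3 (0.12, adjusted p = 0.70), Egr4 (0.13, adjusted p = 0.73) and Myc (0.13, adjusted p = 0.89).

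**Figure D1:**
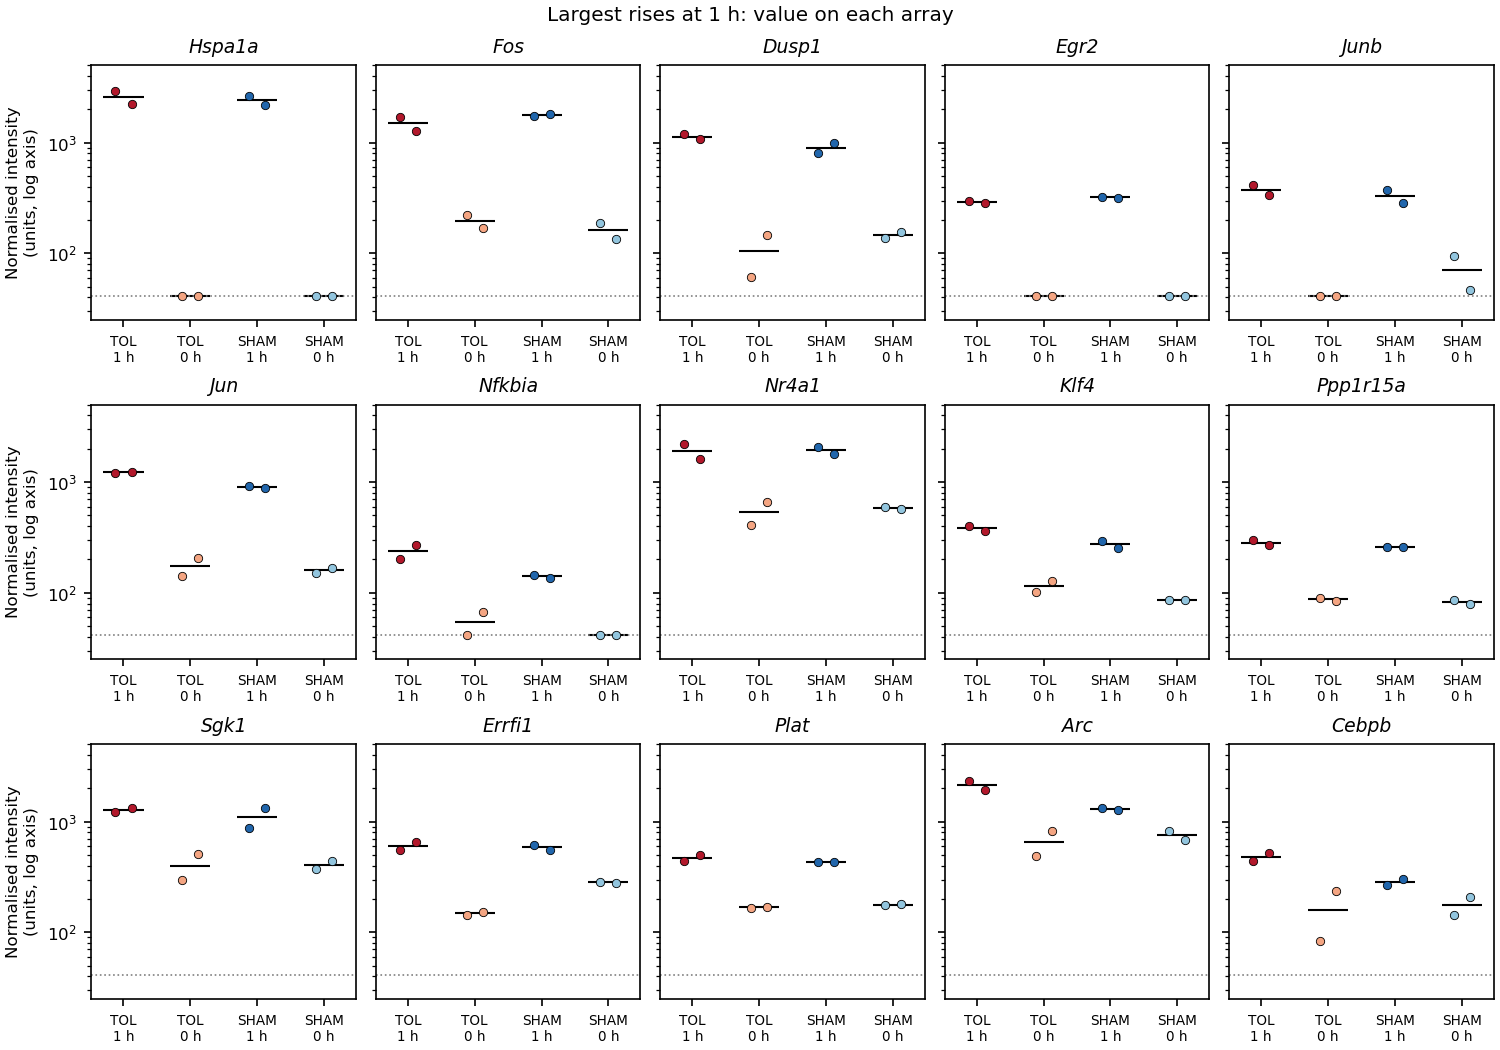
Normalised intensity on each array (units, log axis) for the 15 genes with the largest rises. Points are single arrays, short bars the mean of 2 arrays, and values at or below the noise level of 41.2 units are drawn on the dotted line. For a gene to be chosen, both 1 h arrays had to lie above both 0 h arrays in each arm. Hspa1a and Egr2 lie on the dotted line at 0 h.

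Among the phosphatases that switch off mitogen-activated protein kinases, Dusp1, a nuclear enzyme that inactivates p38 and JNK, whose promoter carries the full cyclic AMP response element, read 1188 and 1083 units in TOL at 1 h, against 60.9 and 147 at 0 h. The SHAM arrays read 799 and 992 units at 1 h, against 139 and 154 at 0 h. The rise was 8.53-fold (log2 difference 3.09, SE 0.26, adjusted p = 1.2e-06), and 2 further probe sets of Dusp1 rose by 3.58 and 3.92. Dusp5, an ERK-directed nuclear phosphatase with the paired CArG boxes, read 286 and 270 units in TOL at 1 h, against 121 and 168 at 0 h. In SHAM Dusp5 read 228 and 212 units at 1 h, against 143 and 142 at 0 h (log2 difference 0.80, SE 0.14, adjusted p = 0.0031). Its call was lost without normalisation. Dusp6, the cytosolic ERK phosphatase, did not pass over both arms (0.48, adjusted p = 0.080), with 977 and 1381 units in TOL at 1 h against 623 and 644 at 0 h, and 1106 and 1076 in SHAM at 1 h against 1068 and 1002 at 0 h. TOL alone passed (0.88, adjusted p = 0.031) and SHAM alone did not (0.08, adjusted p = 0.98), while the difference between the arms did not pass (0.80, adjusted p = 0.53). A dimmer probe set of Dusp6 passed over both arms (2.83-fold, adjusted p = 0.044). By their brightest probe sets, 2 of the 5 phosphatases tested rose, against 1.61% of all genes. Of the 11 kinases of the pathway 0 passed in either direction, against 2.76% of all genes, and their median was 0.03.

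Errfi1, an intracellular inhibitor of the EGF receptor, read 553 and 657 units in TOL at 1 h, against 145 and 153 at 0 h. In the SHAM arm it read 609 and 559 units at 1 h, against 287 and 279 at 0 h. The 1 h arrays of the arms overlapped, whereas the 0 h arrays of TOL lay below those of SHAM. The mean rise was 1.53 on the log2 scale (SE 0.12, adjusted p = 8.6e-07). The difference between the arms' responses, TOL minus SHAM, was 0.98 but did not pass (adjusted p = 0.27). Errfi1 also stands on the list of glucocorticoid-responsive genes, of which 4 of the 12 tested rose: Dusp1, Nfkbia, Sgk1 and Errfi1. The list's median was 0.20, and 1.61% of all genes rose. Nr3c1, the glucocorticoid receptor, did not pass (-0.79, adjusted p = 0.078), although both 1 h arrays lay below both 0 h arrays in each arm.

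Nfkbia, the inhibitor that holds NF-κB in the cytoplasm and is itself an NF-κB target, read 201 and 273 units in TOL at 1 h. At 0 h in TOL 1 array lay below the noise level and the other read 67.3 units. In SHAM Nfkbia read 146 and 136 units at 1 h, with both 0 h arrays below the noise level, so its rise was at least 3.90-fold over both arms (adjusted p = 0.00031). It was the only call among 15 tested genes of cytokines and inflammation. Nfkb1, which encodes an NF-κB subunit, did not pass (0.72, adjusted p = 0.21), nor did Il1b (0.11, adjusted p = 0.78) or Ccl2 (0.20, adjusted p = 0.83). Ppp1r15a, the phosphatase subunit that reverses stress-induced phosphorylation of the initiation factor eIF2α, read 299 and 269 units in TOL at 1 h, against 89.6 and 85.0 at 0 h. In SHAM it read 262 and 260 units at 1 h, against 86.9 and 79.7 at 0 h. It rose 3.19-fold (adjusted p = 6.6e-08) with replicates close together, and a second probe set rose by 0.53 (adjusted p = 0.034). It was the only call among 15 tested genes of endoplasmic reticulum stress, a list whose median was 0.00 on the log2 scale. The lumenal chaperone Hspa5 did not pass (-0.03, adjusted p = 0.96), nor did Ddit3, the CHOP factor (0.40, adjusted p = 0.25).

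Immediate early genes that act outside the nucleus followed, with 6 of 21 tested rising and 0 falling, against 1.61% and 1.15% of all genes. Their median was 0.29. Sgk1, a serum- and glucocorticoid-induced kinase, read 1234 and 1315 units in TOL at 1 h, against 296 and 506 at 0 h. The SHAM arrays read 875 and 1324 units at 1 h, against 373 and 437 at 0 h, a rise of 2.96-fold over both arms (adjusted p = 0.0007). Sgk1 did not overlap between the times, though its SHAM arrays at 1 h stood wide apart. Plat, the secreted tissue plasminogen activator, read 445 and 501 units in TOL at 1 h, against 166 and 170 at 0 h. In SHAM Plat read 428 and 430 units at 1 h, against 175 and 180 at 0 h, and it rose 2.60-fold (log2 difference 1.38, SE 0.10, adjusted p = 3.6e-07). The arrays of each Plat group lay close together. Arc, a dendritic protein that governs the removal of AMPA receptors, read 2327 and 1949 units in TOL at 1 h, against 488 and 829 at 0 h. In SHAM Arc read 1318 and 1271 units at 1 h, against 823 and 679 at 0 h. Over both arms Arc rose by 1.27 (SE 0.23, adjusted p = 0.0057), but SHAM alone did not pass (0.79, adjusted p = 0.43), and the call was lost in the fit of the 8 arrays alone and within fluidics runs.

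Nptx2, a secreted pentraxin of excitatory synapses, rose by 0.81 (SE 0.18, adjusted p = 0.024) and Ptgs2, the inducible cyclooxygenase, by 0.72 (SE 0.15, adjusted p = 0.013). Nptx2 read 611 and 848 units in TOL at 1 h and 318 and 399 at 0 h, and in SHAM 508 and 572 at 1 h and 360 and 353 at 0 h. Ptgs2 read 266 and 277 units in TOL at 1 h and 175 and 171 at 0 h, and in SHAM 328 and 280 at 1 h and 195 and 159 at 0 h. Neither overlapped between the times, but Nptx2 lost its call without any 1 of the SHAM arrays, without TOL 0 h replicate 1 and without TOL 1 h replicate 2, and Ptgs2 when replicate 2 of SHAM 0 h, replicate 1 of SHAM 1 h or replicate 2 of TOL 1 h was left out. Both lost it within fluidics runs and without normalisation too, and Nptx2 with hybridisation day as a block. Btg1, an antiproliferative gene named after its values were seen, was the sixth member that rose (0.29, adjusted p = 0.047). Btg1 lost its call without any 1 array other than TOL 0 h replicate 2, and in 8 of the other 13 alternatives. The late-acting members Bdnf (0.04, adjusted p = 0.92) and Homer1 (0.13, adjusted p = 0.78) did not pass. Mdm2, the ubiquitin ligase that degrades p53 and is a p53 target, read 131 and 174 units in TOL at 1 h, against 90.7 and 76.1 at 0 h. In SHAM Mdm2 read 151 and 162 units at 1 h, against 68.4 and 75.2 at 0 h, and it rose by 0.99 (SE 0.12, adjusted p = 6.1e-05). It was the only call among 10 tested p53 targets and cell death genes.

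Beside Hspa1a, 3 of the 22 heat shock proteins and chaperones tested rose and 0 fell, against 1.61% and 1.15% of all genes. The list's median was 0.09. Hsph1, the Hsp110 exchange factor of Hsp70, read 2120 and 1866 units in TOL at 1 h, against 1046 and 960 at 0 h. In the SHAM arm it read 1908 and 1776 units at 1 h, against 990 and 1098 at 0 h (log2 difference 0.90, SE 0.11, adjusted p = 0.00015). Dnajb1, the Hsp40 partner of inducible Hsp70, read 797 and 735 units in TOL at 1 h, against 366 and 433 at 0 h. In SHAM Dnajb1 read 675 and 603 units at 1 h, against 320 and 370 at 0 h (0.92, SE 0.12, adjusted p = 0.00023). Dnaja1, another Hsp40 cochaperone, read 2295 and 2115 units in TOL at 1 h, against 1291 and 1139 at 0 h. In SHAM Dnaja1 read 2377 and 2510 units at 1 h, against 1311 and 1331 at 0 h (0.87, SE 0.12, adjusted p = 0.00032). The 3 cochaperones rose by 0.87 to 0.92, without overlap, and each kept its call under all 21 alternatives. The mitochondrial chaperonin Hspd1 did not pass, although its groups did not overlap either (0.39, adjusted p = 0.059). Hspb1, the small heat shock protein Hsp27 (0.03, adjusted p = 0.95), Hsp90ab1 (-0.06, adjusted p = 0.77) and Hsf1 (0.00, adjusted p = 1.0) did not pass either.

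**Figure D2:**
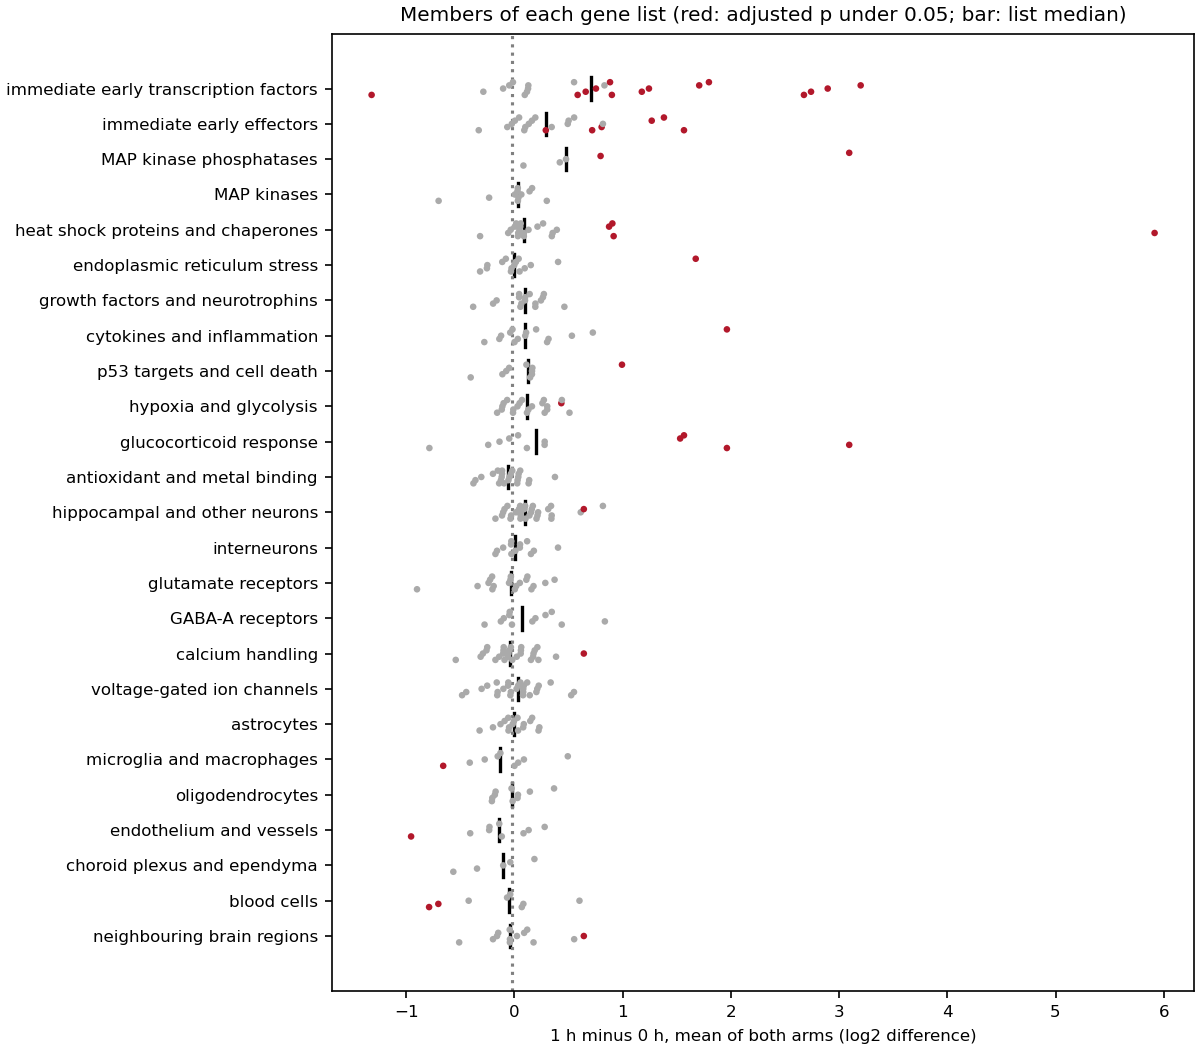
Log2 difference, 1 h minus 0 h in the mean of both arms, for each tested member of 25 gene lists. Points are genes, red where the adjusted p is under 0.05, black bars are list medians and the dotted line is the median of all genes, -0.02. The immediate early transcription factors have 14 red points and the heat shock list 4, of which Hspa1a is at 5.92.

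Genes of hypoxia and glycolysis showed 1 call among 21 tested. Adm, the vasodilator peptide adrenomedullin, was called higher (log2 difference 0.43, adjusted p = 0.046), with 49.2 and 56.5 units in TOL at 1 h and 64.8 and 53.2 in SHAM at 1 h, and all 4 arrays at 0 h below the noise level. That call was lost without any 1 of the 8 arrays, with experiment number or hybridisation day as a block, within fluidics runs and in 4 further alternatives. Slc2a3, the neuronal glucose transporter, did not pass (0.51, adjusted p = 0.052), though its groups did not overlap, with 250 and 229 units in TOL at 1 h against 160 and 160 at 0 h, and 211 and 228 in SHAM at 1 h against 161 and 164 at 0 h. No call was made among 16 growth factors and neurotrophins, 23 antioxidant and metal-binding genes, 19 glutamate receptors, 12 GABA receptors, 27 voltage-gated ion channels, 13 interneuron markers, 17 astrocyte markers or 10 oligodendrocyte markers. The medians of these lists lay between -0.06 and 0.10 on the log2 scale. Over all genes tested 2.76% were called. An absence of calls in lists of this size therefore cannot be read as a lack of response.

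Calb1, the calcium buffer calbindin of dentate granule cells and CA1 neurons, was the only call among 30 neuronal markers and among 28 genes of calcium handling. It read 372 and 343 units in TOL at 1 h, against 230 and 236 at 0 h. In SHAM it read 424 and 409 units at 1 h, against 275 and 250 at 0 h (log2 difference 0.64, SE 0.13, adjusted p = 0.011). The groups did not overlap, and the call was lost without SHAM 0 h replicate 2, without normalisation and within fluidics runs. Calb1 is also strong in cerebellum and stands on the list of neighbouring brain regions, of which it was the only call among 13. That list's summed level was 2711 and 2554 units in TOL at 1 h, 2722 and 2527 in TOL at 0 h, 3134 and 2675 in SHAM at 1 h, and 2913 and 2593 in SHAM at 0 h. Syt1, a synaptic vesicle calcium sensor, did not pass (0.82, adjusted p = 0.060).

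Id3, an inhibitor of basic helix-loop-helix factors that is usually grouped with the immediate early genes, fell in both arms, and it was the only 1 of the 12 named falls whose call held under all 21 alternatives. It read 194 and 213 units in TOL at 1 h, against 668 and 602 at 0 h. The SHAM arrays read 310 and 287 units at 1 h, against 563 and 634 at 0 h. The groups were far apart in both arms, and Id3 fell by 1.32 on the log2 scale (SE 0.14, adjusted p = 2e-05), with a second probe set falling by 1.48. The calls that likewise held under every alternative in which they were tested were those of Hspa1a, Fos, Dusp1, Egr2, Junb, Jun, Nfkbia, Nr4a1, Klf4, Ppp1r15a, Sgk1, Errfi1, Plat, Mdm2, Nr4a3, Hsph1, Dnajb1 and Dnaja1. Its relative Id1 rose, and Id2 did not pass (-0.11, adjusted p = 0.79).

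Anp32a, a nuclear phosphoprotein that inhibits protein phosphatase 2A, had the largest fitted fall (-1.80, SE 0.45, adjusted p = 0.044) but wide replicates. In TOL 1 of its 1 h arrays lay below the noise level and the other read 43.6 units, against 68.9 and 276 at 0 h. In SHAM 1 array read 124 units at 1 h and the other lay below the noise level, against 277 and 257 at 0 h. A second probe set of Anp32a differed the other way without passing (0.46, adjusted p = 0.36). The call of the first was lost without either TOL 1 h array, either SHAM 0 h array, SHAM 1 h replicate 2 or TOL 0 h replicate 2, with the floor at the 25th or the 50th percentile, in the fit of the 8 arrays alone and with the filter on 1 of 24 arrays. Nap1l4, a histone chaperone, read 131 and 170 units in TOL at 1 h, against 298 and 351 at 0 h. In SHAM Nap1l4 read 338 and 272 units at 1 h, against 395 and 411 at 0 h. It fell by 0.77 over both arms (SE 0.12, adjusted p = 0.001), lost its call in the fit of the 8 arrays alone, and did not pass in SHAM (-0.41, adjusted p = 0.40). Its test of the difference between the arms did not pass (adjusted p = 0.48).

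Slco1a4, an organic anion transporter of brain capillaries, read 142 and 115 units in TOL at 1 h, against 320 and 248 at 0 h. In the SHAM arm it read 209 and 177 units at 1 h, against 355 and 302 at 0 h. It fell by 0.96 (SE 0.19, adjusted p = 0.0091), and the call was lost without TOL 1 h replicate 2 and within fluidics runs. It was the only call among 9 vessel markers, whose summed level was 1787 and 1813 units in TOL at 1 h, 1947 and 1717 in TOL at 0 h, 2039 and 2088 in SHAM at 1 h, and 1939 and 2263 in SHAM at 0 h. In bulk tissue fewer cells of a type and less RNA per cell cannot be told apart.

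Efemp1, a fibulin of the extracellular matrix, was below the noise level on both TOL arrays at 1 h, against 80.5 and 75.2 units at 0 h. In SHAM 1 array lay below the noise level and the other read 45.1 units at 1 h, against 96.9 and 78.9 at 0 h. It fell by at least 0.97 on the log2 scale (adjusted p = 0.00072), and the call was lost with other floors. The difference was -1.02 (adjusted p = 0.054) with a lower floor of 3.49 units, the 25th percentile, and -0.26 (adjusted p = 0.072) with a higher one of 68.8 units, the 50th percentile. Dcn, the collagen-binding proteoglycan decorin, had 1 array below the noise level and 86.1 units on the other in TOL at 1 h, against 93.9 and 152 at 0 h. In SHAM Dcn read 61.9 units on 1 array at 1 h, with the other below the noise level, against 87.9 and 168 at 0 h (-1.14, SE 0.27, adjusted p = 0.032). Another probe set of Dcn passed (-1.01, adjusted p = 0.0088) and 2 did not (adjusted p = 0.058 and 0.095). Lgals1, the lectin galectin-1, fell by 0.81 (SE 0.19, adjusted p = 0.034), with values of at most 51.4 units on the 1 h arrays of either arm. The Dcn call was lost without SHAM 0 h replicate 2, SHAM 1 h replicate 2, TOL 0 h replicate 2 or, in TOL at 1 h, replicate 1, while that of Lgals1 was lost without any 1 of the 8 arrays other than TOL 0 h replicate 2. The Dcn call was also lost with the floor at the 25th percentile, in the fit of the 8 arrays alone, with hybridisation day as a block and within fluidics runs. The Lgals1 call was also lost with the floor at the 50th percentile, without normalisation, with experiment number or hybridisation day as a block and within fluidics runs.

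The haemoglobin probe sets Hbb and Hbb-b1, which detect members of the beta-globin family together, were the only calls among 8 blood cell markers. Hbb read 1393 and 1494 units in TOL at 1 h, against 2264 and 1607 at 0 h. In SHAM Hbb read 1184 and 913 units at 1 h, against 2458 and 2244 at 0 h. It fell by 0.79 over both arms (SE 0.18, adjusted p = 0.027) and Hbb-b1 by 0.70 (SE 0.16, adjusted p = 0.023), and in TOL 1 of the 0 h arrays lay close to the 1 h arrays. SHAM alone passed for Hbb (-1.18, adjusted p = 0.029) and Hbb-b1 (-0.98, adjusted p = 0.039). TOL alone passed for neither (-0.40, adjusted p = 0.55, and -0.43, adjusted p = 0.43). The difference between the arms did not pass either (adjusted p = 0.72 and 0.79). The summed level of the 8 markers was 3373 and 3546 units in TOL at 1 h, 4865 and 3721 in TOL at 0 h, 3291 and 2774 in SHAM at 1 h, and 5490 and 5026 in SHAM at 0 h. Most of each sum came from Hbb and Hbb-b1, so the sums largely restate their calls. The part of blood content in other falls was not tested. Both calls were lost without either SHAM 0 h array, SHAM 1 h replicate 2, TOL 0 h replicate 1 or either TOL 1 h array, and also without normalisation, in the fit of the 8 arrays alone, with hybridisation day as a block and within fluidics runs.

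Car2, the carbonic anhydrase of oligodendrocytes, choroid plexus and red cells, fell by 0.67 (SE 0.16, adjusted p = 0.031), while a dimmer probe set did not pass (-0.35, adjusted p = 0.21). It read 1070 and 1004 units in TOL at 1 h and 1331 and 2196 at 0 h, and in SHAM 1032 and 1126 at 1 h and 1641 and 1674 at 0 h. Its call was lost without any 1 array other than TOL 0 h replicate 1, with experiment number as a block, with the floor at the 25th percentile, without normalisation and in the fit of the 8 arrays alone. P2ry12, the ADP receptor of resting microglia, was the only call among 9 markers of microglia and macrophages (-0.66, SE 0.15, adjusted p = 0.031). It read 109 and 123 units in TOL at 1 h and 166 and 167 at 0 h, and in SHAM 128 and 138 at 1 h and 227 and 234 at 0 h, with no overlap, but lost the call without any 1 of the 8 arrays, with the floor at the 25th percentile, without normalisation, with experiment number or hybridisation day as a block and within fluidics runs. The list summed to 3008 and 2976 units in TOL at 1 h, 2651 and 2804 in TOL at 0 h, 2521 and 2533 in SHAM at 1 h, and 3019 and 2839 in SHAM at 0 h. Choroid plexus markers gave 0 calls among 5 and varied between replicates, with sums of 1696 and 3229 units in TOL at 1 h, 4055 and 5490 in TOL at 0 h, 2969 and 995.6 in SHAM at 1 h, and 2285 and 976.7 in SHAM at 0 h.

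Gon7, a subunit of the complex that modifies transfer RNA (-0.93, SE 0.22, adjusted p = 0.034), and Slfn5, of the Schlafen family (-0.72, SE 0.18, adjusted p = 0.044), complete the 12 largest falls. Gon7 had 1 array below the noise level and 46.6 units on the other in TOL at 1 h, against 99.8 and 97.1 at 0 h, and in SHAM 90.7 and 70.5 at 1 h, against 126 and 133 at 0 h. Slfn5 read 128 and 98.0 units in TOL at 1 h and 214 and 172 at 0 h, and in SHAM 113 and 109 at 1 h and 188 and 163 at 0 h. The groups did not overlap in either gene, as the rule for naming them required. Gon7 lost its call without any 1 of the 8 arrays, and Slfn5 without any 1 of the SHAM arrays, TOL 0 h replicate 1 or TOL 1 h replicate 2. Both also lost it with the floor at the 25th percentile, without normalisation, with hybridisation day as a block and within fluidics runs, and Slfn5 with the filter on 1 of 24 arrays.

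**Figure D3:**
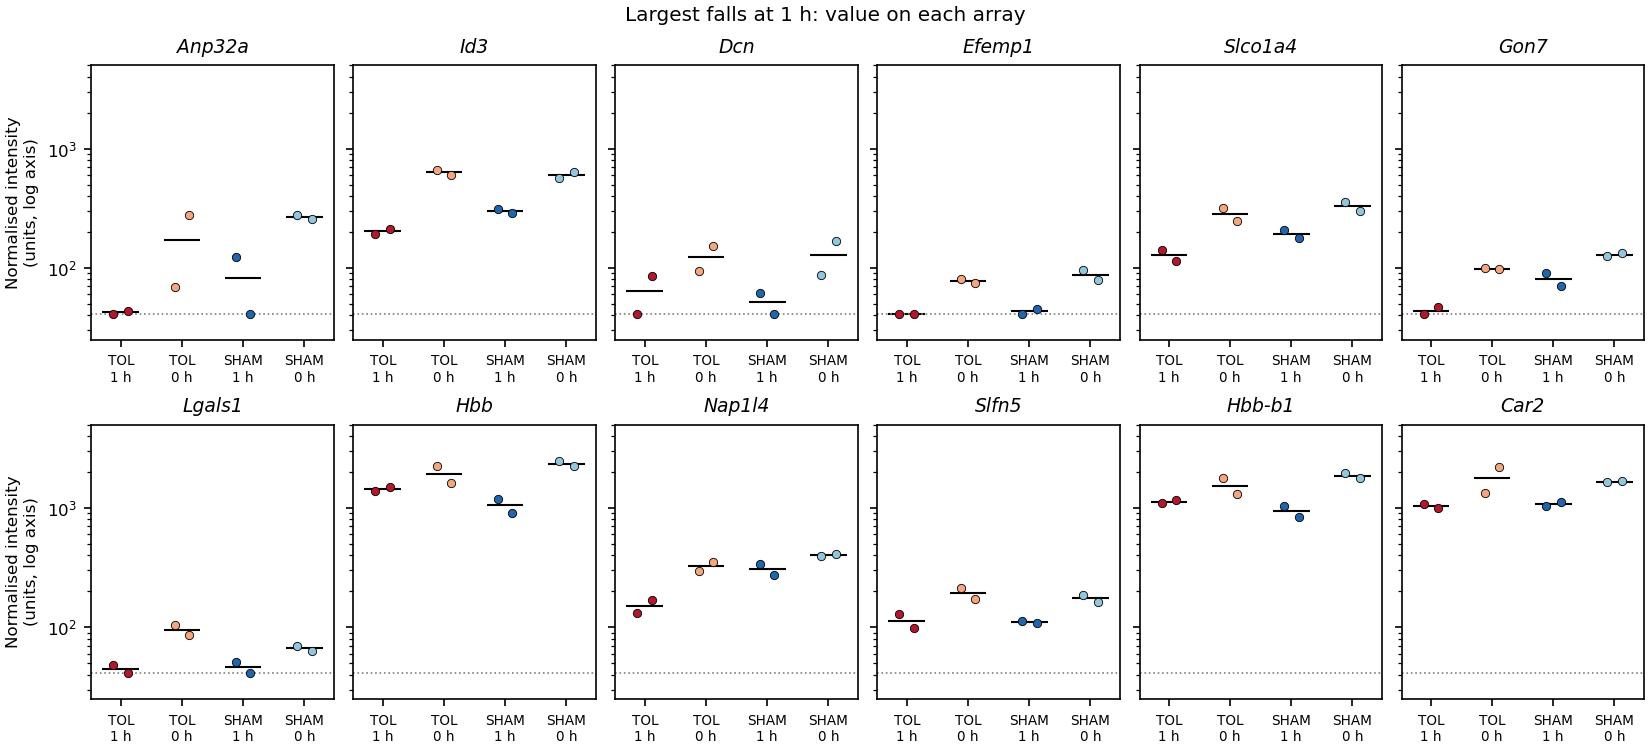
Normalised intensity on each array (units, log axis) for the 12 genes with the largest falls, drawn as in the plot of rises. For a gene to be chosen, both 1 h arrays had to lie below both 0 h arrays in each arm. The margin is wide in Id3 and narrow in Dcn, Hbb and Hbb-b1.

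The direction of the response was compared between the arms, which share no arrays. Over 5228 tested probe sets with a difference other than 0 in both arms, 57.59% went the same way in TOL and SHAM, and the log2 differences of the arms correlated at r = 0.41 across probe sets, which share the arrays' normalisation and are not independent. Each arm taken singly gave 69 higher and 33 lower probe sets in TOL (1.3% and 0.62%, together 1.92%) and 59 higher and 16 lower in SHAM (1.11% and 0.3%, together 1.41%). Single arrays moved these counts by more than 1.5 times. In TOL, rises numbered 42 without TOL 0 h replicate 1 and 40 without TOL 1 h replicate 2, while falls numbered 16 without TOL 0 h replicate 1, and 74 and 10 when replicate 1 and replicate 2 of TOL at 1 h were left out. In SHAM, rises numbered 38 without SHAM 0 h replicate 1 and 39 without SHAM 1 h replicate 1, and falls 8 without SHAM 0 h replicate 1 and 4 without SHAM 1 h replicate 2. Of the 68 probe sets called higher in TOL with a difference other than 0 in SHAM, 66 were also higher in SHAM (97.06%), and the SHAM difference was not used in those calls. Of the 59 called higher in SHAM, 56 were higher in TOL (94.92%). Of the 33 falls called in TOL, 32 had a difference other than 0 in SHAM, and 23 of those were lower in SHAM (71.88%). Of the 16 falls called in SHAM, only 12 had a difference other than 0 in TOL, and 10 of those were lower in TOL (83.33%). The Wilson 95% intervals were 89.9% to 99.19% for the rises in TOL and 54.63% to 84.44% for the falls in TOL, and they treat probe sets as independent.

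Calls made in both arms singly numbered 48, of which 46 were higher and 2 lower. They were 47.06% of the TOL calls and 64.0% of the SHAM calls, and none went in opposite directions. A further 69 probe sets passed in the mean of both arms without passing in either arm. Among the probe sets called higher in the mean, 56 had the larger rise in TOL and 55 in SHAM, and among those called lower, 34 had the larger fall in TOL and 28 in SHAM.

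The difference between the arms' responses was tested itself. It passed for 0 of 5326 probe sets (0%) in limma, where 367 (6.891%) had an unadjusted p under 0.05 and the smallest adjusted p was 0.091. The median probe set's 95% interval for this difference reached 0.615 on the log2 scale to either side, before any adjustment. The floor at the 25th percentile gave 3 calls and that at the 50th percentile 2, the 8 arrays alone gave 1, and leaving out SHAM 0 h replicate 2, SHAM 1 h replicate 2 or TOL 0 h replicate 2 gave 7, 3 or 8. The 6 genes with the lowest p-values of this test are given here, and none of them passed it. Of these, Muc13, Grk1 and St6galnac3 were called higher in the mean of both arms (log2 differences 0.63, 0.36 and 0.46). A call in the mean therefore does not by itself show a rise in each arm. Muc13, a cell surface mucin, read 134 and 143 units in TOL at 1 h, against 169 and 156 at 0 h. In SHAM it read 233 and 180 units at 1 h, against 63.0 and 83.4 at 0 h. The arms thus went in opposite directions, with a difference of -1.73 (adjusted p = 0.091). Zp1, an egg coat protein (1.82, adjusted p = 0.25), Pcsk6, a proprotein convertase (1.31, adjusted p = 0.25), Itpkb, a kinase of inositol trisphosphate (-1.42, adjusted p = 0.26), Grk1, the rhodopsin kinase (0.71, adjusted p = 0.27), and St6galnac3, a sialyltransferase (-0.99, adjusted p = 0.27), followed.

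**Figure D4:**
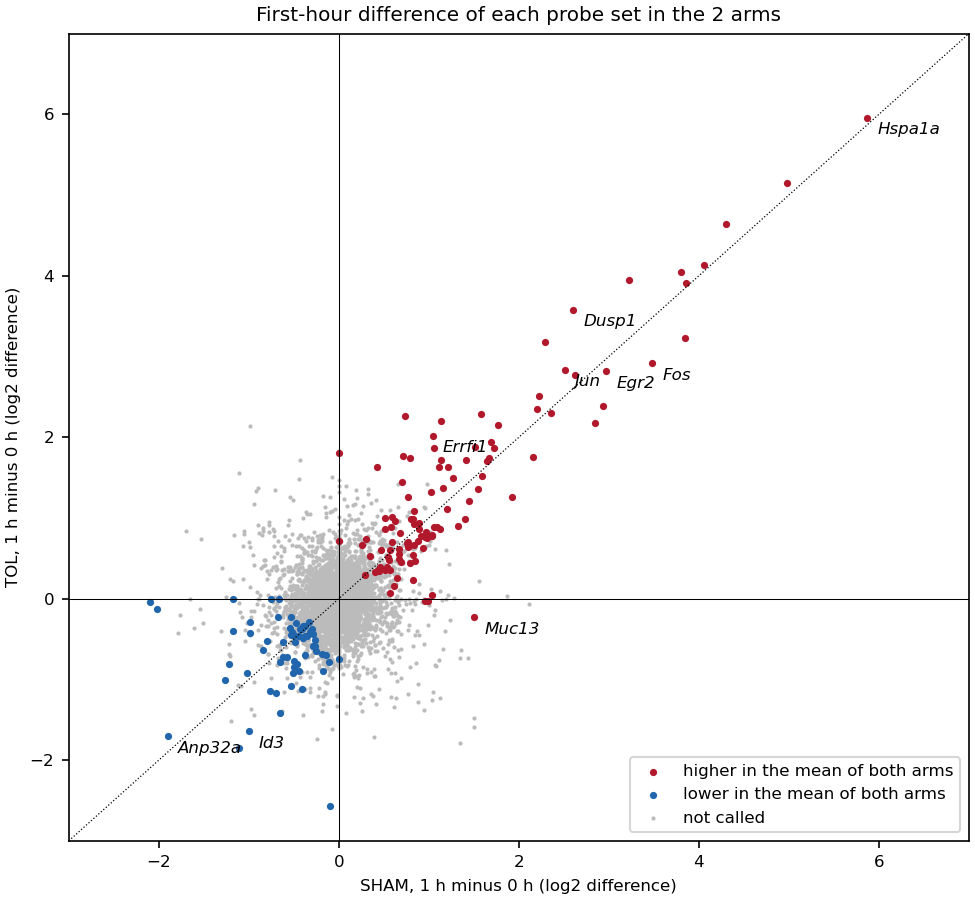
Log2 difference, 1 h minus 0 h, of each of the 5326 tested probe sets in TOL (vertical axis) against SHAM (horizontal axis). Red points are the 111 called higher in the mean of both arms, blue points the 62 called lower, grey points the rest, and the dotted line marks equal differences. The largest rise, Hspa1a, lies near the dotted line, at 5.96 in TOL and 5.87 in SHAM. Other large rises lie off it to either side. Dusp1 is at 3.58 in TOL and 2.60 in SHAM, Errfi1 at 2.02 and 1.04, and Fos at 2.92 and 3.48.

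The later arrays of the same course show how long these levels lasted, given here as means ± SD (n = 2) with no test. Hspa1a averaged 2906 ± 546 units in TOL at 3 h, 4744 ± 134 at 12 h, 4300 ± 73.5 at 24 h and 1605 ± 107 at 48 h. In SHAM it averaged 2360 ± 331 at 3 h, 5398 ± 81.4 at 12 h, 4334 ± 445 at 24 h and 1557 ± 39.3 at 48 h. Its means at 12 h lay above those at 1 h in both arms, and every array at 48 h stood far above the noise level. Hsph1 averaged 5757 ± 150 units in TOL and 6052 ± 116 in SHAM at 12 h, and 5757 ± 150 in TOL and 6870 ± 134 in SHAM at 24 h.

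The immediate early genes plotted that rose all had lower means at 12 h than at 1 h in both arms. This did not hold for every such gene. Ptgs2, not plotted, averaged 437 ± 71.7 units in TOL and 548 ± 15.2 in SHAM at 12 h. Its means at 1 h were 272 ± 7.87 units in TOL and 304 ± 33.5 in SHAM. Dusp5 also had higher means at 12 h than at 1 h in both arms. Fos averaged 824 ± 280 units in TOL at 3 h and 214 ± 5.34 at 12 h, and 588 ± 217 and 264 ± 74.2 units in SHAM at the same times. Egr2 averaged 182 ± 5.09 units in TOL and 151 ± 23.7 in SHAM at 3 h, and at 12 h the TOL mean was below the noise level while SHAM averaged 46.1 ± 5.85 units. Jun averaged 630 ± 59.4 units in TOL and 504 ± 47.0 in SHAM at 12 h, lower than at 1 h. At 48 h it averaged 844 ± 7.17 units in TOL and 678 ± 122 in SHAM, still well above its 0 h arrays. Nr4a1 averaged 261 ± 46.4 units in TOL and 182 ± 14.8 in SHAM at 12 h, below all 4 of its 0 h arrays.

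**Figure D5:**
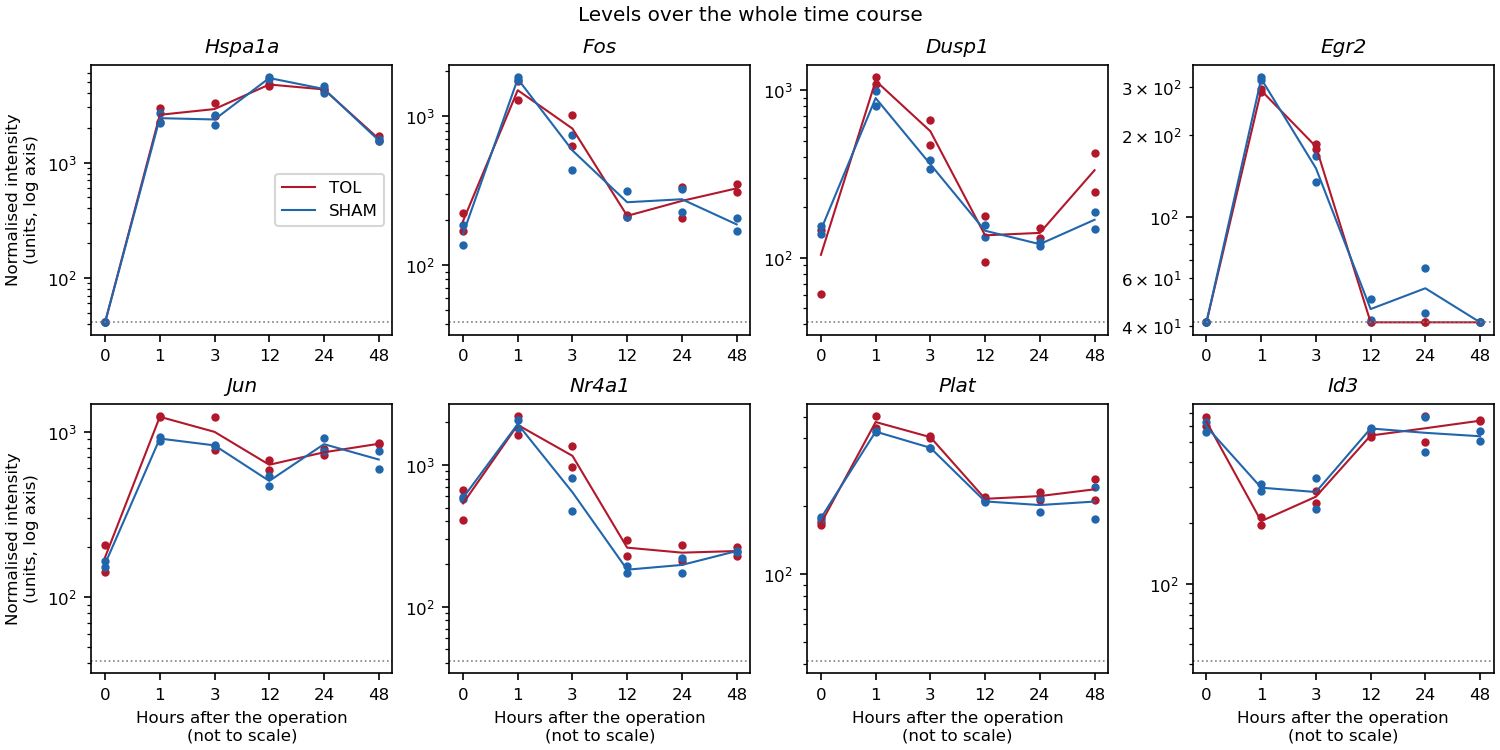
Normalised intensity (units, log axis) at 0, 1, 3, 12, 24 and 48 h for 8 genes, with 1 point per array and a line through the mean of 2 arrays in TOL (red) and SHAM (blue). The dotted line is the noise level of 41.2 units, and values at or below it are drawn on it. By their means, Fos, Dusp1, Egr2, Jun, Nr4a1 and Plat are highest at 1 h, Hspa1a at 12 h, and Id3 is low at 1 h and 3 h.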

How the data were processed

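Rat hippocampus RNA was measured on 24 Affymetrix arrays. Each deposited value is a linear intensity of 1 probe set on 1 array. Of an array's values 21.9% to 24.5% lay at or below 0, as after a background subtraction. The authors' software and scaling are not stated in the labels or files. The 8 arrays had medians of 51.6 to 80.8 units. Groups follow the sample titles. All arrays were quantile normalised, values were floored at the noise level (99th percentile of the 1957 probe sets with a mean at or below 0) and taken to log2. A fitted difference from a floored group is a lower bound. The 59 control probe sets were left out. A mean per group was fitted to all 24 arrays with limma 3.58.1 in R 4.3.3 (12 residual and 2.75 prior degrees of freedom), with two-sided moderated tests and Benjamini-Hochberg adjustment over all tested probe sets at 0.05. On simulated data with known changes the fit was tested before use. Python 3.11.15 and matplotlib 3.10.9 drew the figures.

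By the platform annotation 7018 probe sets matched 1 gene, 308 several and 1473 none, and only those with 1 gene are named. The rule named the 15 largest rises and 12 largest falls that passed with both 1 h arrays beyond both 0 h arrays in each arm, up to 5 members of each of the 25 lists by smallest p, and the 6 smallest p-values of the difference between the arms. The comparison, members and lists were chosen with earlier results of these data known. In 52 genes with over 1 tested probe set at least 1 was called, of which 37 had another that was not called and 16 one of opposite sign. Alternatives, 20 in number, covered floor, normalisation, filter, variance trend, blocks and left-out arrays. The comparison within fluidics runs was added after seeing the data. Fluidics runs were inferred from recorded times at most 5 minutes apart. The main fit did not pair samples by experiment number. Deviations of same-numbered 1 h and 0 h arrays correlated at -0.02 in TOL and 0.02 in SHAM. Those of TOL and SHAM arrays correlated at -0.04 at 1 h and 0.13 at 0 h. Low correlations after quantile normalisation cannot exclude a pairing.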

Additional observations from a re-analysis of the deposited data

Results flagged for a closer look

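In 6 of the 135 genes named, every array of 1 arm moved one way at 1 h and every array of the other arm the opposite way. The share of all tested probe sets that did so was not counted, so this number cannot be read as unusual. Muc13, Zp1, Pcsk6 and Itpkb were named for a low p-value of the difference between the arms, a choice that favours opposite movement. The difference of the responses, TOL minus SHAM on the log2 scale, was -1.73 for Muc13, 1.82 for Zp1, 1.31 for Pcsk6, -1.42 for Itpkb, 0.63 for Cntf, a ciliary neurotrophic factor of astrocytes, and 0.23 for Kl, the klotho gene of the choroid plexus. None passed the test of that difference, with limma adjusted p-values of 0.091 for Muc13, 0.25 for Zp1 and Pcsk6, 0.26 for Itpkb, 0.61 for Cntf and 0.90 for Kl. Zp1 read 82.7 and 91.1 units in TOL at 1 h, against 1 array below the noise level and 51.2 units at 0 h. In SHAM Zp1 read 46.6 units on 1 array at 1 h, with the other below the noise level, against 77.2 and 86.4 units at 0 h. Itpkb read 65.5 and 60.1 units in TOL at 1 h, against 130 and 101 at 0 h, and in SHAM 101 and 60.1 units at 1 h, against 52.0 and 54.9 at 0 h.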

How the results depend on the processing

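Among the 47 genes named with a call, no alternative turned a direction, though the alternatives reuse the arrays that made the calls. Higher and lower counts of the mean of both arms were 111 and 62. Without normalisation they were 62 and 15 (in TOL 43 and 10, in SHAM 36 and 4), and 96.0% of TOL calls had the same direction in SHAM, against 89.0%. Within fluidics runs they were 68 and 16 (in TOL 42 and 16, lower in SHAM 3), with 2 calls of the difference between the arms. Falls numbered 39 with the floor at the 25th percentile (7 in SHAM), 94 with median scaling, 17 with the 8 arrays alone (15 in TOL, 10 in SHAM) and 31 with hybridisation day as a block (13 in TOL). Testing only probe sets above the floor on all 8 arrays gave 44 rises and 19 falls in TOL, and 32 and 3 in SHAM, with fewer probe sets tested. The difference between the arms gave 3 calls with the floor at the 25th percentile, 2 at the 50th and 1 with the 8 arrays alone.

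Leaving out single arrays gave 70 to 117 rises and 23 to 80 falls in the mean of both arms, 40 to 96 and 10 to 74 in TOL, and 38 to 63 and 4 to 19 in SHAM. It gave 0 to 8 calls of the difference between the arms. The share of calls with the same direction in the other arm ranged from 79.43% to 100% for TOL calls and 85.92% to 93.9% for SHAM calls. A group left with 1 array was assumed to vary like the others. With the experiment number as a replicate block, 94 probe sets were higher and 42 lower, and the difference between the arms gave 0. Of the 111 rises, 13 had all 0 h arrays at or below the noise level, and of the 62 falls 4 had all 1 h arrays there, so the sizes fitted for these are bounds.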
